A study of Solanum lycopersicum with 32 samples.

Results

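Trimethylation of lysine 4 of histone H3 (H3K4me3) was compared between tomato (Solanum lycopersicum) leaves held at 45 °C for 6 h and unheated leaves (0 h), using the peak lists of 4 of the 32 samples of a chromatin immunoprecipitation sequencing (ChIP-seq) series. They are the 2 H3K4me3 libraries of each of these time points. All plants were wild type (WT) cv. M82, 4 weeks old, grown in pots at 24 °C with 16 h of light, and the fourth leaf was sampled. Every group therefore shares the cultivar, the growth regime and the antibody, and differs in the time at 45 °C. A leaf holds many cell types, so a weaker peak and a peak carried by fewer cells cannot be told apart. No unheated leaves were taken at 6 h, and heat cannot be told apart from time of day. The 2 H3K4me3 libraries at 1 h and the 24 lists of H3K9ac, H3K18ac, H3K27ac (acetylations of lysines of the same histone) and RNA polymerase II (RNAPII) from leaves of the same stage and treatment were used to describe what lay at the changing sites.

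As background, H3K4me3 is deposited by methyltransferases of the COMPASS type and sits on the first nucleosomes of transcribed genes, where it is read by proteins that assist transcription and RNA processing. Its breadth varies between genes. H3K9ac marks the same nucleosomes at active promoters and is turned over quickly by acetyltransferases and deacetylases, and RNAPII marks transcription itself. In Arabidopsis, H3K4 methylation is known to stay high at some heat-induced genes after their transcription has declined. H3K4me3 peaks were thus read here for presence, width, position of the summit and enrichment. The coordinates are those of the M82 assembly version 1. The gene table at hand describes another assembly, so sites are named by position and no gene or sequence is given.

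H3K4me3 occupied a similar number of sites and a similar length of genome at both times, and its peaks were slightly narrower at 6 h. Peaks with a q-value of at most 0.05 numbered 38173 and 41226 at 0 h and 39050 and 43704 after 6 h, in replicates 1 and 2. The covered length was 43.6 and 50.02 Mb at 0 h and 42.8 and 49.3 Mb after 6 h. In both measures the libraries of the 2 times overlapped. The median peak width was 1057 and 1095 bp at 0 h and 1013 and 976 bp after 6 h, without overlap. Peaks shorter than 500 bp made up 28.5% and 29.8% of the lists at 0 h and 29.9% and 33.9% after 6 h. On the log2 scale, the difference of 6 h minus 0 h was 0.060 for peak number, −0.024 for covered length and −0.11 for median width. The libraries of one time differed on average by 0.14, 0.20 and 0.052 in these 3 measures, so that only the difference in median width was larger than the spread between libraries. It was −0.049, under that spread, when every list was reduced to the same number of peaks. The lowest width in a list, which MACS2 sets to the estimated fragment length, was 145 and 137 bp at 0 h and 139 and 130 bp after 6 h, and its part in the peak widths was not tested beyond its subtraction, which gave −0.12.

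**Figure D1:**
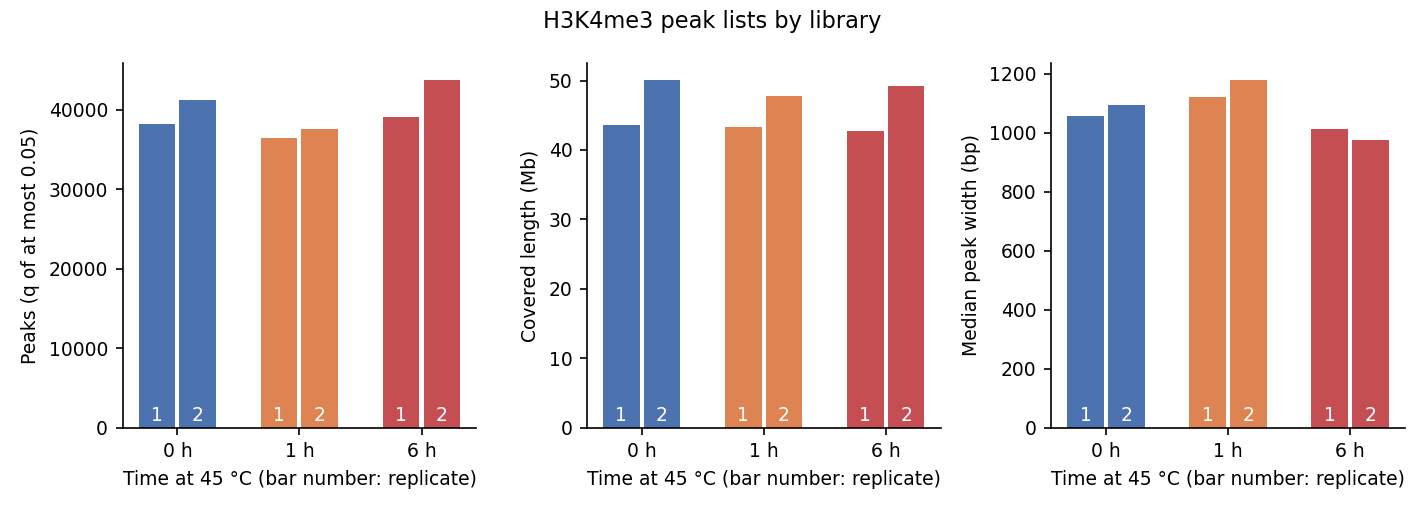
Number of H3K4me3 peaks, covered length in Mb and median peak width in bp (y axes) in each library by time at 45 °C (x axis, in h), with 1 bar per library. The bars of 0 h and 6 h overlap in number and length, whereas the median widths are 1057 and 1095 bp at 0 h, 1122 and 1178 bp after 1 h, and 1013 and 976 bp after 6 h.

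Fold and p-value of a peak together give the number of fragments at its summit. The median peak held 75 and 85 fragments at its summit at 0 h and 55 and 68 after 6 h. The lowest local background, a relative measure of depth, was 4.70 and 6.89 fragments at 0 h and 3.71 and 6.31 after 6 h, so replicate 2 was the deeper library at both times. Libraries of one time differed in these fragment numbers by no more than sampling noise. Over matched peaks, the mean chi-square was 0.411 at 0 h (12678 peaks) and 0.426 after 6 h (13738 peaks), against 1.27 to 2.28 for the 4 pairs of a 0 h and a 6 h library. Independent Poisson counts would give 1. Whether the count at a summit varies less than a Poisson count was not tested. The labels call the libraries independent biological replicates. They were nevertheless counted as 1 sample per time, no SD is given, and the differences between 0 h and 6 h have no replicate check. An exact permutation test that takes the 4 libraries as labelled gave a two-sided p of 0.667 for peak number and covered length and 0.333 for median width, where 0.333 is the smallest value that 2 against 2 libraries allow.

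Most H3K4me3 regions were present before and after 6 h of heat. The union of the 4 lists formed 44876 regions over 56.7 Mb, of which 28411 (63.3%) had a peak in all 4 libraries and are called shared. A region was called gained when both 6 h libraries and neither 0 h library had a peak there, which held for 1002 regions (2.23%). It was called lost in the reverse case, which held for 1143 regions (2.55%). The other 14320 regions (31.9%) were mixed, and 9573 of them had a peak in a single library, most often in the deeper replicate 2 of 6 h (4896 regions) or of 0 h (3133 regions). Another 1598 regions had peaks only in replicate 2 of both times, which is more than were gained or lost. Libraries of the same time disagreed at 7307 regions at 0 h and at 9071 regions at 6 h. A peak weaker than the q threshold was listed at 0 h in 289 of the gained regions, and at 6 h in 217 of the lost regions. Joining peaks within 200 bp left 654 gained and 847 lost regions. With a single library at a time, counts were larger by construction. They came to 1149 gained and 4518 lost regions without replicate 1 of 0 h, 2442 and 2359 without its replicate 2, 6168 and 1328 without replicate 1 of 6 h, and 2430 and 2417 without its replicate 2. Gained regions were the more numerous with replicate 1 alone at both times (5386 gained, 4774 lost) and with replicate 2 alone (6653 and 5014). Which of the 2 classes was the larger thus depended on the libraries left out.

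Gained and lost regions were short and weak next to shared ones. The median length was 427.5 bp for gained, 362 bp for lost and 1562 bp for shared regions. Fold enrichment is the authors' ratio of pileup to local background at the summit, each with 1 added. The fold given for a region is that of the strongest peak overlapping it. For the 1 h lists and the other targets, the summit of that peak can lie outside the region. The lower of the values of the 2 libraries with a peak had a median of 2.27 in gained and also of 2.27 in lost regions, whereas the lowest of the 4 values in shared regions had a median of 12.01. The classes differed at their upper end. The lower fold was at least 4 in 53 gained regions (5.29%) and in 26 lost regions (2.27%). It reached 14.7 among the gained and 6.14 among the lost regions.

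The 8 gained regions with the highest lower fold already carried H3K4me3 after 1 h. On chromosome 3, the region chr3:61048723-61050912 had no peak in either 0 h library, folds of 26.2 and 14.6 after 1 h and folds of 14.7 and 16.7 after 6 h in replicates 1 and 2. Here the 1 h peak ran beyond the region and had its summit outside it. The region chr5:19417375-19419924 had none at 0 h, 4.78 and 5.81 after 1 h and 14.1 and 16.1 after 6 h. At the second region both 6 h libraries were above both 1 h libraries, whereas at the first they overlapped. At chr4:53228120-53230753 the folds were 5.004 and 5.18 after 1 h and 14.0 and 16.4 after 6 h. At chr11:7843503-7846930 they were 6.44 and 5.91 after 1 h and 12.1 and 11.01 after 6 h. At chr5:42556929-42559539 they were 7.34 and 7.81 after 1 h and 10.5 and 15.3 after 6 h. In these 3 regions both 6 h values were above both 1 h values. The region chr9:60106535-60108549 had reached its level by 1 h, with 9.64 and 8.93 after 1 h and 9.67 and 9.24 after 6 h. At chr1:11318659-11320286 the folds were 3.53 and 3.38 after 1 h and 9.01 and 9.09 after 6 h, and at chr5:8810342-8812791 they were 3.49 and 2.96 after 1 h and 8.80 and 10.3 after 6 h. Of the 8 regions, 6 had both 6 h folds above both 1 h folds.

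The 8 regions were chosen for a high H3K4me3 fold at 6 h and no peak at 0 h, which largely fixes their H3K4me3 course. RNAPII, which was not used in the choice, had a peak in both libraries at 4 of them at 0 h, and at all 8 at 1 h and at 6 h. At chr5:8810342-8812791 there was no RNAPII peak at 0 h, the folds were 37.1 and 34.9 after 1 h, and they were 13.6 and 12.9 after 6 h. At chr1:11318659-11320286 RNAPII likewise had no peak at 0 h, 36.2 and 34.2 after 1 h, and 21.9 and 21.6 after 6 h. In both regions RNAPII was highest at 1 h. H3K9ac was found in both libraries at 2 of the 8 regions at 0 h, 6 after 1 h and 4 after 6 h. At chr11:7843503-7846930 it had no peak at 0 h, folds of 13.8 and 14.6 after 1 h and 3.94 and 3.68 after 6 h. At chr5:8810342-8812791 no library of any time had an H3K9ac peak.

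**Figure D2:**
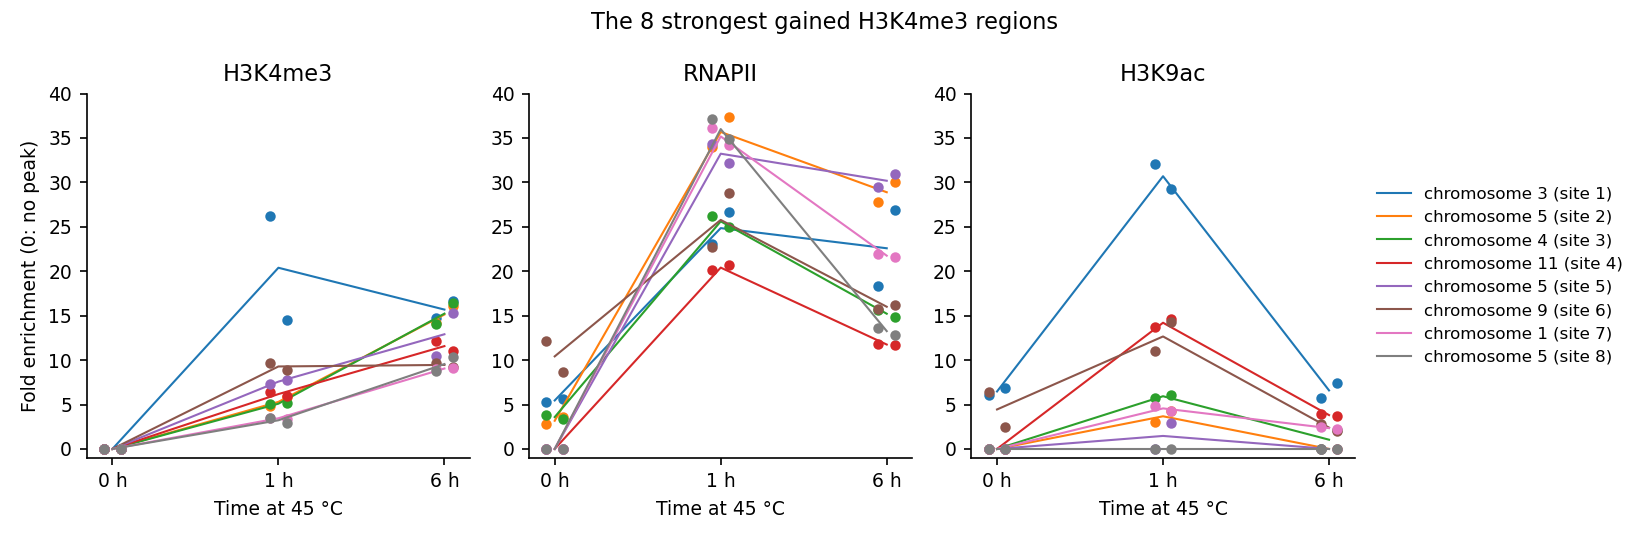
Fold enrichment (y axis, 0 where no peak was called) of H3K4me3, RNAPII and H3K9ac at the 8 strongest gained regions by time at 45 °C (x axis, in h), with 1 point per library, 1 colour per region and lines through the means. H3K4me3 is absent at 0 h and above its 1 h values at 6 h in 6 of 8 regions, whereas the mean RNAPII fold is highest at 1 h in every region.

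RNAPII was also lower at 6 h than at 1 h in most of the 53 gained regions with a lower fold of at least 4, a limit chosen after the values were seen. Of the 39 such regions with H3K4me3 peaks in all libraries of 1 h and 6 h, 32 (82.1%) had both 6 h folds above both 1 h folds. Since the regions were chosen for a high 6 h fold, this count is a description. RNAPII did not enter the choice. It had a peak in both libraries at 22 of the 53 regions (41.5%) at 0 h, at all 53 at 1 h and at 50 (94.3%) at 6 h. In 45 of the 50 regions with RNAPII in all 1 h and 6 h libraries (90%), both 6 h folds were below both 1 h folds. The share was 55.1% over shared regions. H3K9ac was present in both libraries at 12 regions at 0 h, 41 after 1 h and 24 after 6 h, and its fold was lower at 6 h than at 1 h in 21 of 23 regions (91.3%), against 48.2% in shared regions. H3K18ac, another acetylation of active chromatin, was present at 27, 51 and 30 regions, and was lower at 6 h in 25 of 29 (86.2%), against 61.4% in shared regions. These comparisons were not tested, because each time point counts as 1 sample, and folds of different lists also carry the depth of their libraries.

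Weak gained regions had another composition. Among the 144 gained regions with a lower fold under 2, RNAPII was present in both libraries at 20.8% at 0 h, 25.7% after 1 h and 18.8% after 6 h. Among the 736 regions with a lower fold between 2 and 3 the shares were 18.6%, 25.5% and 23.0%. H3K9ac was found at 13.2% of the latter at 0 h and at 13.5% at 6 h. H3K18ac, in contrast, lay at 73.5% of them at 0 h, 53.4% after 1 h and 80.8% after 6 h. H3K27ac lay at 78.7%, 80.0% and 81.1%. In shared regions the shares were 96.2%, 95.3% and 97.6% for H3K18ac and 98.2%, 99.2% and 99.1% for H3K27ac, so that weak gained regions were below them in both. Over all 1002 gained regions, 686 (68.5%) had neither RNAPII nor H3K9ac in any 0 h library, against 10.1% of shared regions. Of the 686, 427 carried both H3K18ac and H3K27ac, which is 42.6% of gained regions, against 9.38% of shared regions. No peak of any of the 4 other targets lay at 132 gained regions (13.2%) at 0 h, against 0.197% of shared regions. Gained regions were also shorter than shared ones. In both 0 h libraries, shared regions of up to 500 bp at 0 h had RNAPII at 27.2% and H3K9ac at 48.2%. The shares in gained regions were 21.0% and 14.5%, so that for RNAPII the short shared regions were close to them.

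Weak and strong gained regions differed in their 1 h state. Of the 1002 gained regions, 716 (71.5%) had no peak in either 1 h library and 151 (15.1%) had a peak in both. Among the 53 with a lower fold of at least 4, in contrast, 39 had a peak in both, as had all 8 strongest. A peak near the calling limit can be missed in a library, so absence at 1 h does not date a weak gain. Of the 1143 lost regions, 566 (49.5%) still had a peak in both 1 h libraries and 340 (29.7%) had a peak in neither. Among shared regions, 93.1% had a peak in both 1 h libraries.

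H3K9ac was called at 0 h at all 8 of the lost regions with the highest lower fold, and in both 6 h libraries at all but 1. At chr4:59254472-59254932 the H3K4me3 folds were 7.09 and 6.14 at 0 h and 7.06 and 6.85 after 1 h, with no peak at 6 h. H3K9ac folds there were 15.2 and 12.6 at 0 h, 7.48 and 7.79 after 1 h and 5.16 and 5.34 after 6 h. H3K9ac was thus lower after heat, but was called at every time. At chr1:82727760-82728217 the H3K4me3 folds were 6.75 and 5.36 at 0 h and 6.34 and 7.096 after 1 h, and at chr9:3377495-3378812 they were 6.28 and 4.99 at 0 h and 6.99 and 8.55 after 1 h, the latter from longer peaks with their summits outside the region. The region chr1:73130146-73130718 had folds of 4.88 and 5.96 at 0 h and 2.60 and 3.10 after 1 h. In these 3 regions too, no peak was called at 6 h. At chr4:1343979-1344575 the folds were 4.87 in both 0 h libraries, and H3K4me3 was absent by 1 h. It was the only one of the 8 strongest lost regions without a peak at 1 h. The others were chr8:30193910-30194133, chr8:2594494-2594856 and chr12:2072658-2073274, whose lower folds at 0 h lay between 4.63 and 4.67. RNAPII was present in both libraries at 6 of the 8 regions at each time.

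Lost regions as a class lay in chromatin that carried H3K9ac and RNAPII before heat. H3K9ac was present in both libraries at 77.8% of lost regions at 0 h, 47.1% after 1 h and 56.9% after 6 h. RNAPII was present at 61.8%, 65.4% and 52.8%. In shared regions the H3K9ac shares were 84.5%, 79.0% and 86.5%, and those of RNAPII 75.2%, 82.1% and 74.0%, with little difference between 0 h and 6 h. In gained regions H3K9ac was found at 14.5%, 19.9% and 16.2%, and RNAPII at 21.0%, 33.1% and 29.6%. Length bears on such overlaps. Shared regions of up to 1000 bp at 0 h had H3K9ac at 62.5% and RNAPII at 43.4% at 0 h. Lost regions, although shorter, were above them in both. These short shared regions had H3K9ac at 50.1% after 1 h and 65.6% after 6 h, above lost regions at both times. They had RNAPII at 53.6% and 40.3%, below lost regions. At 0 h, the share with H3K9ac in gained regions minus that in lost regions was −63.3 percentage points. The difference was −60.03 to −64.1 points at other peak thresholds or peak numbers, and −38.1 and −39.98 points with 1 replicate number alone. H3K9ac was called in both 0 h libraries and in neither 6 h library at 136 lost regions (11.9%), against 1.18% of shared regions. The reverse held at 6 lost regions (0.525%), against 3.07% of shared regions. RNAPII appeared in this sense at 102 gained regions (10.2%) and disappeared at 23 (2.295%), against 1.44% and 2.06% of shared regions. H3K27ac went the other way in lost regions, with 70.8% at 0 h and 82.9% after 6 h.

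**Figure D3:**
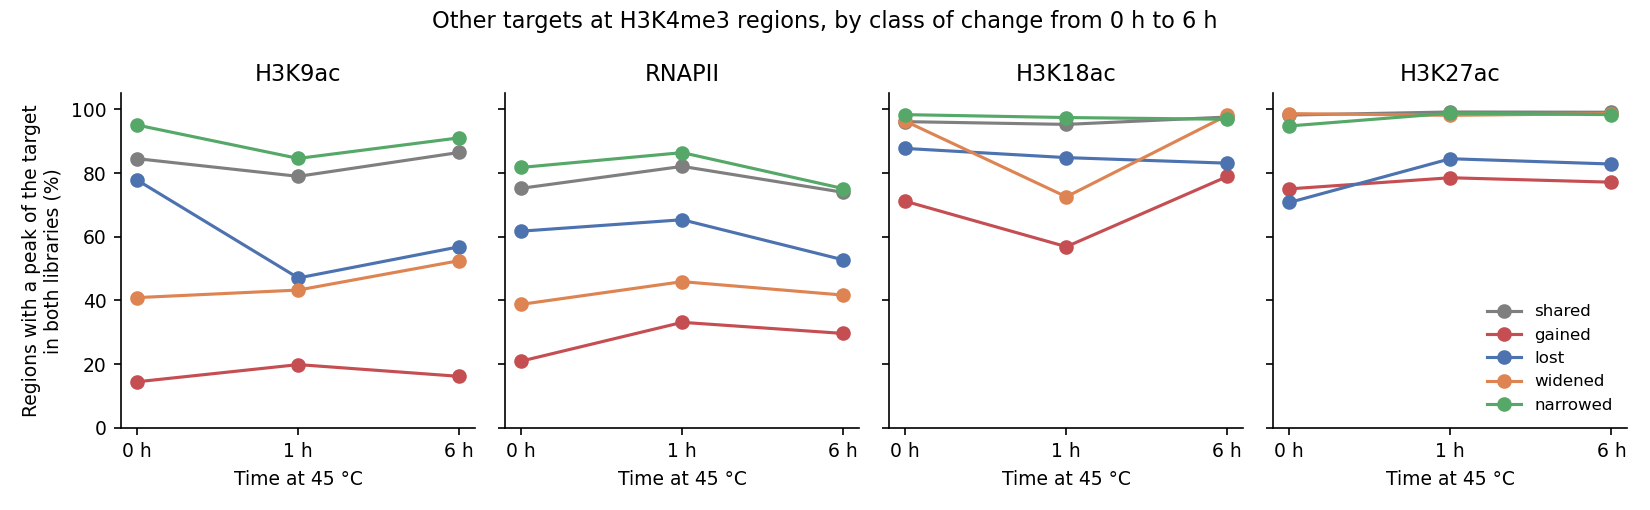
Share of H3K4me3 regions (y axis, percent) with a peak of H3K9ac, RNAPII, H3K18ac or H3K27ac in both libraries by time at 45 °C (x axis, in h), by class of H3K4me3 change between 0 h and 6 h. Gained regions have the lowest H3K9ac and RNAPII shares at each time, and the H3K9ac share of lost regions is 77.8% at 0 h and 56.9% after 6 h.

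Most shared regions kept their width. The change of covered width from 0 h to 6 h, taken on the log2 scale between the means of the libraries, had a median of −0.051 over the 28411 shared regions, with quartiles of −0.18 and 0.061. The change was below 0 in 63.1% and within 1.3-fold in 85.0% of them. The mean covered width was 1580 bp at 0 h and 1539 bp after 6 h. The median per library was 1311 and 1451 bp at 0 h and 1268 and 1395 bp after 6 h, and the libraries of the 2 times overlapped. Going from replicate 1 to replicate 2 of one time moved the median width more, by 0.11 at 0 h and 0.094 after 6 h on the log2 scale. The pairs with the same replicate number, which are more alike in depth, differed by −0.048 and −0.051. The crossed pairs differed by 0.041 and −0.16.

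**Figure D4:**
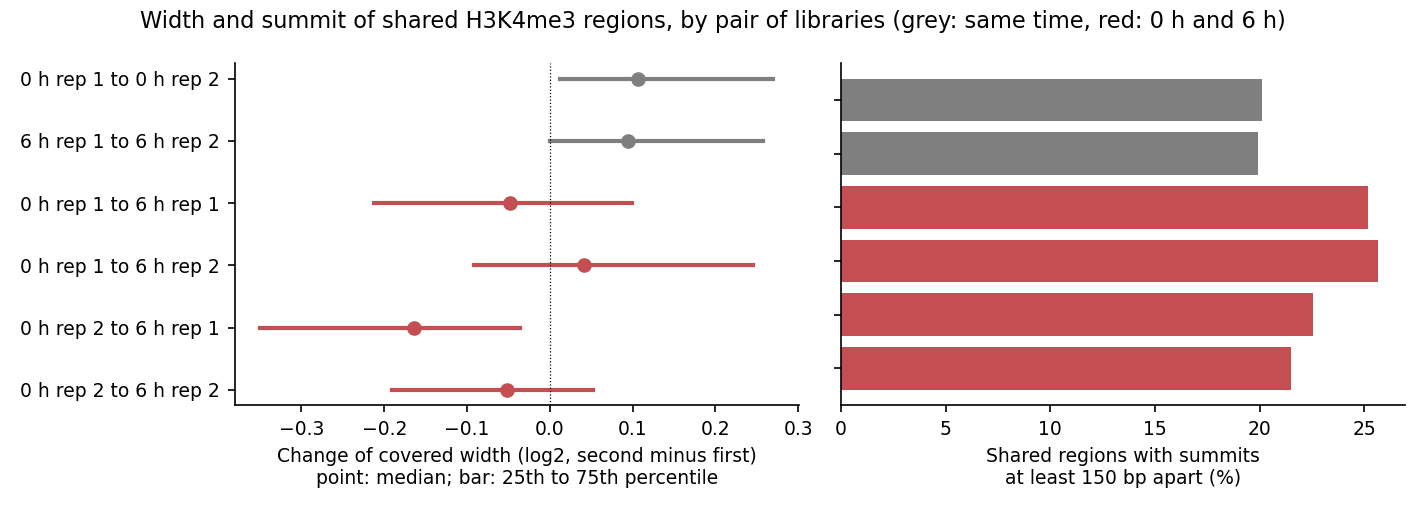
Left, change of the covered width of shared regions for each pair of libraries (x axis, log2, second library minus first, median with 25th to 75th percentile). Right, share of shared regions whose summits lay at least 150 bp apart (x axis, percent). Grey marks pairs of one time and red marks pairs of 0 h and 6 h. The median widths of same-time pairs differ by 0.11 and 0.094, more than those of 3 of the 4 pairs across times, whereas distant summits make up 21.5% to 25.7% across times and 20.1% and 19.9% within a time.

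A small set of shared regions changed width beyond both libraries of a time. A region was called widened when its narrower 6 h library covered at least 1.3 times its broader 0 h library, and narrowed in the reverse case. There were 379 widened (1.33%) and 1098 narrowed regions (3.86%), and 215 and 528 at a factor of 1.5. The excess of narrowed regions turned when replicate 2 of 0 h alone, the list with the largest covered length, was left out. Without it there were 2358 widened and 1382 narrowed regions. The counts were 739 and 2411 without replicate 1 of 0 h. They were 1365 and 1817 without replicate 1 of 6 h, and 473 and 3192 without replicate 2 of 6 h. Narrowed regions were also more numerous with replicate 1 alone at both times (2746 widened, 3845 narrowed) and with replicate 2 alone (2831 and 4164).

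Both classes were shorter at 0 h than shared regions, whose median was 1379.5 bp, and part of this follows from the choice by width. Widened regions covered a median of 743 bp at 0 h, 422 bp after 1 h and 1490 bp after 6 h. Narrowed regions covered 1174 bp at 0 h, 1002 bp after 1 h and 620 bp after 6 h. For widened regions the 1 h state varied. Both 1 h libraries were broader than both 0 h libraries in 33.2% of them and narrower in 44.6%, and 112 had no 1 h peak at all. The fold, centred on the median of shared regions in each library, was higher at 6 h in 86.3% of widened and in 21.9% of narrowed regions, against 57.8% of all shared regions. Of the widened regions, 259 extended at a single edge by at least 150 bp, 20 at both edges and 100 at neither. Narrowed regions drew in at a single edge in 744 cases, at both in 29 and at neither in 325.

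The 5 most widened regions were already broader at 1 h than at 0 h. Only regions with at least 500 bp in the narrower state were considered. At chr9:905885-909835 H3K4me3 covered 736 and 894 bp at 0 h, 3217 and 3464 bp after 1 h and 3926 and 3917 bp after 6 h. At chr9:66907659-66913055 it covered 1042 and 1263 bp at 0 h, 3829 and 4408 bp after 1 h and 4992 and 5383 bp after 6 h. At chr12:61757773-61761966 the values were 993 and 1059 bp, 3076 and 3921 bp, and 4081 and 4158 bp. In each of the 3 regions, both 1 h libraries lay between those of 0 h and 6 h. At chr10:50232329-50235684 the width was 505 and 826 bp at 0 h, 1891 and 1840 bp after 1 h and 3032 and 3177 bp after 6 h. At chr1:80803261-80806001 it was 558 and 694 bp, 1445 and 1749 bp, and 2486 and 2741 bp. The same order held in these.

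At these 5 regions, RNAPII and H3K9ac were highest at 1 h. At chr9:905885-909835 the RNAPII fold was 3.98 and 5.38 at 0 h, 26.0 in both libraries at 1 h and 4.51 and 5.49 after 6 h. H3K9ac there was 5.49 and 5.30 at 0 h, 34.6 and 26.3 after 1 h and 7.31 and 7.54 after 6 h. Both targets were thus back near their 0 h values at 6 h in this region. The H3K4me3 width was not, but the region was chosen for a large width at 6 h. At chr12:61757773-61761966 RNAPII was 12.6 and 13.4 at 0 h, 28.7 and 32.4 after 1 h and 13.7 and 13.1 after 6 h. With a missing peak counted as 0, both 1 h folds exceeded both 0 h folds in all 5 regions, for RNAPII as well as for H3K9ac. Neither target had a 0 h peak at chr10:50232329-50235684. Both 6 h folds were below both 1 h folds in all 5. Over all widened regions with peaks in every 1 h and 6 h list of the target, H3K9ac was lower at 6 h than at 1 h in 124 of 153 (81.0%) and RNAPII in 115 of 155 (74.2%). The shares in shared regions were 48.2% and 55.1%.

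**Figure D5:**
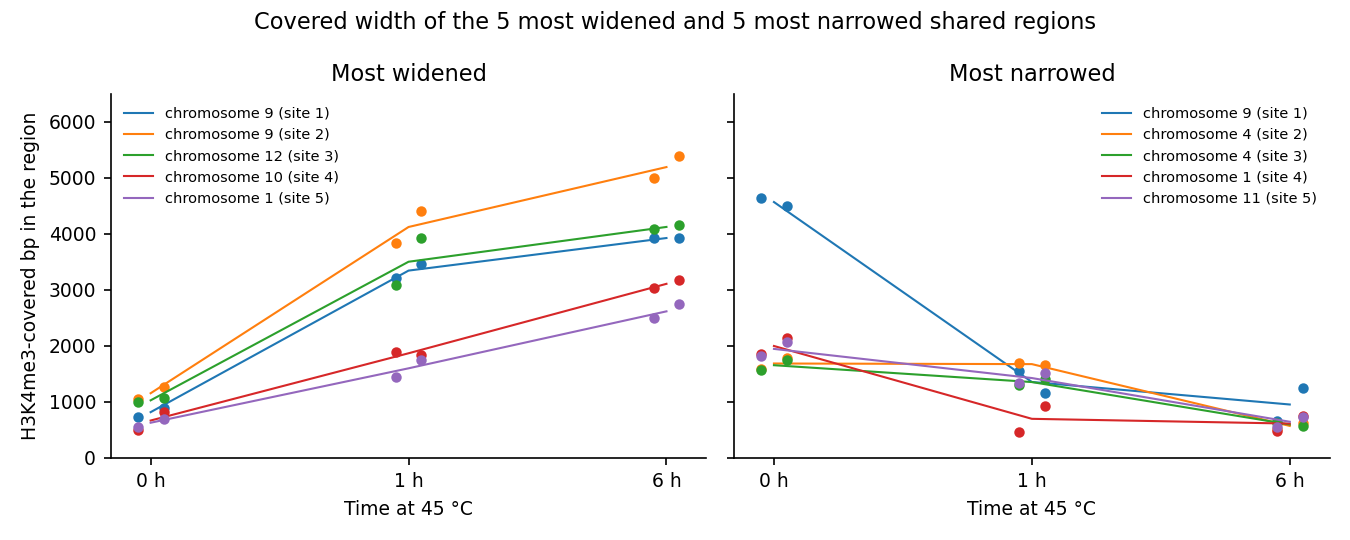
H3K4me3-covered bp (y axis) in the 5 most widened and the 5 most narrowed shared regions by time at 45 °C (x axis, in h), with 1 point per library, 1 colour per region and lines through the means. The most widened regions go from 505 to 1263 bp at 0 h to 2486 to 5383 bp after 6 h, and their 1 h points lie between.

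The most narrowed regions differed among themselves at 1 h. At chr9:56781874-56786506 H3K4me3 covered 4631 and 4496 bp at 0 h, 1550 and 1157 bp after 1 h and 663 and 1240 bp after 6 h. At chr1:82438527-82440658 it covered 1859 and 2132 bp at 0 h, 464 and 928 bp after 1 h and 482 and 740 bp after 6 h. Both regions were already narrow at 1 h. At chr4:3351125-3352996 the width was 1593 and 1773 bp at 0 h, 1689 and 1655 bp after 1 h and 511 and 628 bp after 6 h. At chr4:3227936-3229783 it was 1559 and 1746 bp, 1297 and 1407 bp, and 617 and 572 bp. At chr11:4112121-4114194 it was 1813 and 2074 bp, 1338 and 1509 bp, and 550 and 737 bp. The first of these 3 regions overlapped at 0 h and 1 h, the other 2 were narrower at 1 h, and all 3 were narrowest at 6 h. The broadest shared region, chr10:61244980-61262817 with 17838 bp, covered 12629 and 16255 bp at 0 h and 14656 and 17112 bp after 6 h, and the 2 times overlapped.

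Widened and narrowed regions differed in what lay there before heat. H3K9ac was present in both 0 h libraries at 40.9% of widened, 84.5% of shared and 95.1% of narrowed regions. RNAPII was present at 38.8%, 75.2% and 81.8%. H3K27ac, by contrast, lay at 98.7%, 98.2% and 94.8% of them. The difference in H3K9ac between widened and shared regions was −43.6 percentage points, and −37.2 to −47.0 points at the other peak thresholds, peak numbers and single replicate numbers. That between narrowed and shared regions was 10.6 points and only 0.72 and 0.77 points with 1 replicate number alone. The first difference was also seen between regions of like width at 0 h. Among regions of 500 to 1000 bp, H3K9ac lay at 16.8% of the widened and at 68.6% of all shared regions. Among those of 1000 to 1500 bp the shares were 64.9% and 90.9%. Of the 26 widened regions with 2000 to 3000 bp at 0 h, 92.3% had H3K9ac, as did 92.3% of all shared regions of that width. H3K18ac at widened regions was found at 96.3% at 0 h, 72.6% after 1 h and 98.2% after 6 h, against 96.2%, 95.3% and 97.6% of shared regions.

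In widened and narrowed regions, the covered length of other targets differed between 0 h and 6 h in the same direction as that of H3K4me3, with an exception. The mean H3K9ac-covered length in widened regions was 530 bp in both libraries at 0 h, 1087 and 1104 bp after 1 h and 782 and 800 bp after 6 h. RNAPII covered 640 and 626 bp at 0 h, 1157 and 1146 bp after 1 h and 819 and 783 bp after 6 h. Both were broadest at 1 h. In narrowed regions H3K9ac covered 1245 and 1233 bp at 0 h and 1032 and 1053 bp after 6 h, and RNAPII 1050 and 1028 bp at 0 h and 915 and 887 bp after 6 h. H3K27ac was the exception, with 895 and 848 bp at 0 h and 1150 and 1081 bp after 6 h in narrowed regions, a log2 difference of 0.36, against 0.17 in all shared regions. In widened regions the log2 difference of H3K27ac was 0.14, below that of all shared regions. For H3K18ac it was 0.20 in widened and −0.12 in narrowed regions. In shared regions the log2 difference was −0.0056 for H3K9ac, −0.072 for RNAPII and 0.10 for H3K18ac.

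Edges moved inward more often than outward in the 4 libraries together. An edge counted as moved when both 6 h libraries lay at least 150 bp beyond or within both 0 h libraries. It moved outward in 1285 shared regions (4.52%) and inward in 2523 (8.88%), in similar numbers on the left (660 outward, 1283 inward) and on the right (646 and 1279). This order reversed without replicate 2 of 0 h, with 4796 outward and 3348 inward. Without replicate 1 of 6 h there were 3549 outward and 3527 inward, without replicate 1 of 0 h 1900 and 5583, and without replicate 2 of 6 h 1591 and 6558. Inward edges were the more numerous with replicate 1 alone at both times (5438 outward, 7699 inward) and with replicate 2 alone (5141 and 7582). Most shared regions, 66.1%, were a single peak in every library. Regions had 1.21 and 1.14 peaks on average at 0 h and 1.24 and 1.17 after 6 h. In both 6 h libraries, 403 regions (1.42%) had fewer peaks than in both 0 h libraries and 863 (3.04%) had more. These counts also turned without replicate 2 of 0 h, to 1993 and 920. They were 1252 and 1472 without replicate 1 of 0 h. Without replicate 1 of 6 h they were 1024 and 2268, and without its replicate 2 they were 479 and 2610. They did not turn with replicate 1 alone at both times (1990 fewer, 2361 more) or with replicate 2 alone (2198 and 3122).

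The summit of the strongest peak stayed in place in most shared regions. The median distance between summits was 33 to 47 bp across times and 37 and 31 bp within 0 h and within 6 h, less than the length of DNA on a nucleosome. Summits lay at least 150 bp apart in 25.2%, 25.7%, 22.6% and 21.5% of shared regions in the 4 pairs across times, and in 20.1% and 19.9% in the pairs of one time. The 4 pairs across times were thus all above the 2 within a time. A summit was called moved when both 6 h summits lay on the same side of both 0 h summits with a gap of at least 150 bp. This held for 1824 shared regions (6.42%), and for 850 with a gap of at least 300 bp. The count was 3583 without replicate 1 and 4407 without replicate 2 of 0 h, and 3861 and 3880 without replicate 1 and 2 of 6 h.

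Moved summits were nearer the centre of the region at 6 h. The gap had a median of 286 bp, with quartiles of 196 and 444 bp. The distance of the summit to the centre of the region had a median of 460.5 bp at 0 h and 264 bp after 6 h, and was smaller at 6 h in 1377 of the 1824 regions (75.5%). Over all shared regions it was 316 and 294 bp. At 1 h, where 1675 of the moved regions had peaks in both libraries, both summits lay nearer the 0 h position in 786 (46.9%) and nearer the 6 h position in 440 (26.3%). A single peak in every library was seen in 978 of the moved regions (53.6%), so their summits moved within a peak.

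Moved summits also lay farther from RNAPII and H3K9ac. The position of RNAPII at 0 h was taken where its 2 summits agreed within 100 bp, which left 1067 moved regions. The median distance of the H3K4me3 summit to it was 330.5 and 347.5 bp at 0 h, 460 and 451 bp after 1 h and 661 and 662.5 bp after 6 h. The summit was farther away at 6 h in 809 of these regions (75.8%), against 53.4% of all 17505 shared regions with such a position. The distance to the H3K9ac summit of 0 h, over 1065 moved regions, was 56.5 and 61.5 bp at 0 h and 351 and 352 bp after 6 h. Over all 18645 shared regions with such a position it was 51 and 57.5 bp at 0 h and 69 and 72.5 bp after 6 h. Measured from the H3K9ac summit of 6 h, over 1019 moved regions, it was 61.5 and 64.5 bp at 0 h and 282.5 and 286.5 bp after 6 h. In moved regions the H3K9ac summit of either time was therefore nearer to the H3K4me3 summit of 0 h. A summit this close at 0 h that moves by at least 150 bp mostly ends farther away, so the choice of regions largely fixes this order. No such order was seen for H3K27ac. From its 0 h position, the H3K4me3 summit lay 254 and 252 bp away at 0 h and 215 and 184.5 bp away at 6 h. From its 6 h position, the distances were 184 and 174.5 bp at 0 h and 289.5 and 285 bp at 6 h. For H3K18ac the order depended on the reference. Distances from its 0 h position were 111.5 and 109 bp at 0 h and 395 and 405 bp at 6 h. Those from its 6 h position were 308.5 and 310 bp at 0 h and 337 and 336.5 bp at 6 h.

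The largest shifts were switches between the ends of long regions. At chr4:3972466-3981302 the summit lay at 3980881 and 3980906 at 0 h and at 3973004 and 3972970 after 6 h, a gap of 7877 bp, and the 1 h libraries had 1 summit at either end. At chr2:44570645-44579186 the summits were 44578833 and 44578776 at 0 h and 44571223 and 44571282 after 6 h. At chr9:67958945-67966049 they were 67965604 and 67965612 at 0 h and 67959271 and 67959259 after 6 h. In both regions the 1 h summits lay at the 0 h end. The regions chr3:61576339-61583418 and chr7:68195842-68202516 had gaps of 5995 and 5879 bp. At the latter the folds were 26.1 and 21.6 at 0 h and 20.8 and 17.2 after 6 h, and H3K4me3 covered 5984 and 6655 bp at 0 h and 6541 and 6601 bp after 6 h, so that the region as a whole remained in place.

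Few shared regions differed strongly in enrichment. With the log2 fold centred on the median of shared regions in each library, 15 regions (0.0528%) were at least 2-fold higher in both 6 h libraries than in both 0 h libraries, and 37 (0.13%) at least 2-fold lower. By percentile rank within the list, with a gap of 25 points, there were 43 and 54. All peaks as deposited gave 23 higher and 40 lower. The order depended on the library left out, with 35 higher and 102 lower without replicate 1 of 0 h, 203 and 50 without its replicate 2, 151 and 82 without replicate 1 of 6 h, and 24 and 192 without its replicate 2. Higher regions were the more numerous with replicate 1 alone at both times (276 higher, 233 lower) and with replicate 2 alone (256 and 211). The folds below are the authors' values before centring.

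Regions with higher enrichment at 6 h were also broader, with a median covered width of 868.5 bp at 0 h and 1435.5 bp at 6 h over the 15 regions, and most of those named here had RNAPII highest at 1 h. At chr9:7540979-7547618 the H3K4me3 fold was 3.17 and 3.39 at 0 h, 6.42 and 5.02 after 1 h and 15.1 and 16.7 after 6 h, and its width went from 1508 and 1904 bp at 0 h to 6589 and 6626 bp after 6 h. RNAPII there was 2.26 and 2.76 at 0 h, 32.4 and 32.6 after 1 h and 28.4 and 29.5 after 6 h. At chr9:62649678-62652479 the H3K4me3 fold was 2.202 and 2.56 at 0 h, 6.83 and 7.67 after 1 h and 11.7 and 10.1 after 6 h. At both regions the 1 h libraries were above the 0 h libraries and the 6 h libraries above those of 1 h. At chr3:63085597-63086923 the folds were 2.76 and 3.56 at 0 h, 10.0 and 8.18 after 1 h and 15.1 and 16.3 after 6 h, while H3K9ac was 3.65 and 3.86 at 0 h, 30.6 and 28.5 after 1 h and 8.94 and 8.49 after 6 h. The region chr12:61279771-61280891 had H3K4me3 folds of 5.37 and 5.25 at 0 h, 9.31 and 25.2 after 1 h and 16.6 and 16.2 after 6 h. The 25.2 is that of a longer peak with its summit outside the region. The exception was chr1:90412489-90414420, where H3K4me3 was 2.65 and 3.27 at 0 h, 3.70 and 3.62 after 1 h and 10.5 and 9.27 after 6 h, and where H3K9ac was called at 24.2 and 18.3 at 0 h already. RNAPII there was 20.8 and 23.2 at 0 h, 15.1 and 19.8 after 1 h and 25.8 and 28.3 after 6 h. For the other 4 regions, RNAPII and H3K9ac were above both 0 h values at 1 h and below both 1 h values at 6 h. A missing peak was counted as 0. No 0 h peak was called for H3K9ac at chr9:7540979-7547618 or for RNAPII at chr12:61279771-61280891.

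Regions with lower enrichment at 6 h were narrower there, and they differed in their 1 h state. Over the 37 regions the median covered width was 1340.5 bp at 0 h, 685.5 bp after 1 h and 558.5 bp after 6 h. At chr2:33798459-33800518 the H3K4me3 fold was 12.6 and 11.3 at 0 h, 2.48 and 2.81 after 1 h and 2.76 and 2.87 after 6 h, and RNAPII was 16.3 and 15.8 at 0 h, 3.43 and 2.41 after 1 h and 5.42 and 5.65 after 6 h. At chr8:12657545-12659273 H3K4me3 was 13.5 and 12.97 at 0 h, 2.66 and 2.25 after 1 h and 2.73 and 3.07 after 6 h. At chr1:72706487-72708174 it was 7.76 and 7.50 at 0 h, 2.01 in a single library at 1 h and 2.38 and 2.01 after 6 h. In these 3 regions the fold was low by 1 h. Of the 34 regions of the class with peaks in all 1 h and 6 h libraries, 29 (85.3%) had both 6 h folds below both 1 h folds. Their median folds were 7.72 at 1 h and 3.68 at 6 h. The share was 26.9% over shared regions. Since the class was chosen for a low 6 h fold, this count is a description. At chr5:4279455-4281611 the folds were 15.6 and 15.8 at 0 h, 16.9 and 16.4 after 1 h and 4.46 and 4.33 after 6 h. At chr3:48167126-48167987 they were 6.67 and 8.15 at 0 h, 6.79 and 6.69 after 1 h and 2.50 and 2.19 after 6 h. Both kept their 0 h level at 1 h, and were low at 6 h only.

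Gained and widened regions lay more often in stretches poor in RNAPII. The 12 chromosomes were divided into 807 bins of 1 Mb, and the 403 bins with the least RNAPII-covered length at 0 h were called RNAPII-poor. They held 9.04% of shared, 15.3% of gained, 7.35% of lost, 20.1% of widened and 5.28% of narrowed regions. Gained regions lay a median of 881 bp and lost regions 1299 bp from the nearest shared region, and 52.3% and 45.6% of them lay within 1 kb of it. More than 10 kb separated 13.2% of gained and 7.44% of lost regions from a shared one. Chromosome 5 had 49.6 gained regions per 1000 shared regions, and the other 11 chromosomes had 31.5 to 41.3. Lost regions numbered 34.2 to 43.9 per 1000 shared regions over all chromosomes.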

How the data were processed

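The authors trimmed reads with Trimmomatic 0.38, mapped them to the M82 assembly version 1 with Bowtie2 2.3.5, filtered with SAMtools 1.9 and called peaks in each library with MACS2 2.2.7.1 against a single input from 0 h, which leaves 6 h without an input of its own. Their processing notes also name deepTools. Broad peaks and a q limit of 0.05 are stated in the methods, but narrow peaks that reach a p-value of 0.05 were deposited. The deposited lists give peak positions, the fold enrichment (a ratio), and the p-value and q-value as −log10. Peaks with q of at most 0.05 were kept, 89.7% to 91.6% of an H3K4me3 list.

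Regions are merged unions of the 4 lists, and overlap means 1 bp. Coordinates count from 1. Fragment numbers were solved from fold and p-value, and 100% of peaks with −log10 p under 280 gave a whole number within 0.001 of the deposited −log10 p. For the replicate check, summits within 30 bp with at least 60 fragments together were matched, in 20 levels. Named regions were the 8 gained and 8 lost with the highest lower fold, the 5 most extreme of each other class, and the broadest shared region, on numbered chromosomes. The comparison, its classes and their limits were chosen with earlier results of these data known. Alternatives were the lists as deposited, q of at most 0.01, equal peak numbers, other merging, overlap and size limits, a replicate block, and leaving out libraries. The tools were Python 3.11.15 with pandas 2.3.3, numpy 2.4.6, matplotlib 3.10.9 and scipy 1.17.1. Samples of H3K27me1 and of the input were not used here.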

Additional observations from a re-analysis of the deposited data

Results flagged for a closer look

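The median width of H3K4me3 peaks lay on opposite sides of 0 h at the 2 heated time points. Both 1 h libraries were above both 0 h libraries, with a log2 difference of 0.096 between the means, and both 6 h libraries were below them, with −0.11. The medians were 1122 and 1178 bp at 1 h, 1057 and 1095 bp at 0 h, and 1013 and 976 bp at 6 h. The difference was not tested. Both values use the same 0 h libraries. The lowest width of the lists was 135 and 139 bp at 1 h, 145 and 137 bp at 0 h, and 139 and 130 bp at 6 h, and the number of peaks was 36418 and 37556 at 1 h, lower than at either other time. The part of these in the widths at 1 h was not tested.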

How the results depend on the processing

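There were 71 alternative values for the 17 main results, other than those that leave out libraries. Of these, 64 departed from the main value by no more than the spread between libraries, or for counts by at most 1.5 times. The other 7 were a median peak width of −0.049 on the log2 scale with equal numbers of peaks, 654 gained regions when peaks within 200 bp were joined, 215 widened and 528 narrowed regions at a factor of 1.5, 850 moved summits at a gap of 300 bp, and 23 (all peaks as deposited) and 43 (percentile rank) regions of higher level. Stricter limits give lower counts by construction.

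Leaving out 1 library, or 1 replicate number of both times, gave −0.024 to 0.14 for peak number, −0.13 to 0.079 for covered length, −0.17 to −0.061 for median peak width and −0.11 to −0.0030 for the width of shared regions, all on the log2 scale, and 37 to 48 bp for the distance between summits. It gave 1149 to 6653 gained, 1328 to 5014 lost and 29019 to 33015 shared regions, 473 to 2831 widened and 1382 to 4164 narrowed regions, 3583 to 7635 moved summits, 1591 to 5438 outward and 3348 to 7699 inward edges, 479 to 2198 regions with fewer and 920 to 3122 with more peaks, 24 to 276 regions of higher and 50 to 233 of lower level. Fewer libraries have to agree in these counts.

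With the replicate number as a block, the differences were 0.058 for peak number, −0.025 for covered length, −0.11 for median width and −0.050 for the width of shared regions. Each departed from its value without the block by less than the spread between libraries. The labels tie nothing to the number. Deviations of libraries of the same number correlated across shared regions at 0.30 for width and 0.41 for fold, which is a hint from the data over 2 pairs of libraries, and replicate 2 was deeper at both times. The alternatives for peaks per region and for H3K9ac and RNAPII in the classes were chosen after seeing the data. Depth limits weak peaks, as a gained or lost region had a median lower fold of 2.27.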
